A study of Mus musculus with 10 samples.

Results

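The 10 genes described here encode core subunits of Polycomb repressive complex 2 (PRC2) and the enzymes that write, copy and remove DNA methylation. Their mRNA was compared between normal mouse lung and lung squamous cell carcinoma (SCC). Ezh1, Ezh2, Eed and Suz12 belong to PRC2, Dnmt1, Dnmt3a and Dnmt3b are DNA methyltransferases, Uhrf1 is the partner that brings Dnmt1 to newly replicated DNA, and Tet1 and Tet2 oxidise methylated cytosine. Their names were fixed, and each was represented by the array probe with the highest mean over all 10 columns of the deposited matrix among the probes whose annotation mapped to that gene. All 10 were found among 19092 genes with a named probe, and 15582 of those genes, the 10 included, had a brightest probe that entered the test. Of the members, 6 had 1 probe and the other 4 had several, which gave 15 probes, all well above background on all 10 arrays.

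PRC2 places methyl groups on a lysine of histone H3, and genes so marked are kept silent. Ezh2 and Ezh1 are its alternative catalytic subunits, Ezh2 being typical of dividing cells and Ezh1 of resting ones, while Eed and Suz12 are needed with either. DNA methylation at CpG sites is set by Dnmt3a and Dnmt3b and copied after each round of replication by Dnmt1 with Uhrf1, and the Tet enzymes begin its removal.

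The WT group held 5 whole lungs of mice labelled wild type, of genotype Lkb1f/f. The SCC group held 5 lung tumours of CCSPiCreLkb1f/f mice, in which the promoter of club cell secretory protein drives an improved Cre in airway epithelium, so both groups carried the floxed Lkb1 allele. All mice were of strain B6.129, were 13 months old and had received no treatment. RNA came from whole tissue and was read on Agilent arrays of a single colour, 1 array a sample, and nothing in the labels says how many animals gave the samples of a group, so that p-values measure the spread between these samples. Lkb1 (current symbol Stk11) was matched to none of the probes by accession and is not analysed here.

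SCC replicates 2 and 5 stood apart from the other tumour arrays, which bears on the values that follow. All 7 tested squamous markers, such as Krt14, a keratin of basal squamous cells, were higher in SCC, and their mean level ranged from 5.31 to 5.60 on the log2 scale in WT and from 14.39 to 14.72 on 4 SCC arrays, with SCC replicate 2 at 11.60. Of these 7, Krt6a and Dsg3 were well above background on 0 of 5 WT arrays and 5 of 5 SCC arrays, so they entered the test through SCC alone and had to differ, and the WT mean level includes their background values. SCC replicate 2 was thus the lowest tumour for the mean of these genes, although Sox2, a transcription factor among them, was highest there, at 11.81 against 10.85 to 11.29 on the other tumours. Its mean level of 6 endothelial markers, all lower in SCC, was 12.75, above the 11.54 to 11.85 of the other SCC arrays and below the 14.14 to 14.38 of WT. On SCC replicate 5, 90.2% of spots were well above background, against 71.0% to 74.3% on the other arrays. Xist, which is transcribed from the inactive X chromosome, was at 13.75 on that array together with the Y-linked genes Ddx3y at 8.34 and Eif2s3y at 8.64, whereas on SCC replicate 2 and on WT replicates 2 and 3 Xist was at 4.33 or lower. Differences of members that moved most with SCC replicate 2 or 5 are therefore given with and without it.

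Of the 10 members, 4 were higher in SCC at an adjusted p below 0.05 (limma, adjusted over 30374 tested probes), namely Uhrf1, Dnmt3a, Ezh2 and Dnmt1, and 2 were lower, Dnmt3b and Ezh1. Eed, Suz12, Tet1 and Tet2 did not pass. A slide block left 1 higher and 0 lower, and leaving out WT replicate 2 or 3 or SCC replicate 1, 3 or 4 gave 2 higher. Without SCC replicates 2 and 5 the same 4 members were higher and 3 were lower, Tet1 being the third. Among the brightest probes of all tested genes, 25.4% passed as higher and 28.4% as lower, 53.9% in all, so that 6 of 10 was close to the background. The members higher by at least 2-fold were 3, Uhrf1, Dnmt3a and Ezh2, against 11.6% of all genes, and none was lower by 2-fold, against 13.4%. The median difference of the members was 0.03 on the log2 scale, beside -0.04 over all tested genes. WT and SCC arrays did not overlap for 4 members, Ezh1, Ezh2, Dnmt3b and Uhrf1, against 41.4% of all genes. In tissue RNA, fewer cells of a type and less RNA in each cell cannot be told apart.

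**Figure D1:**
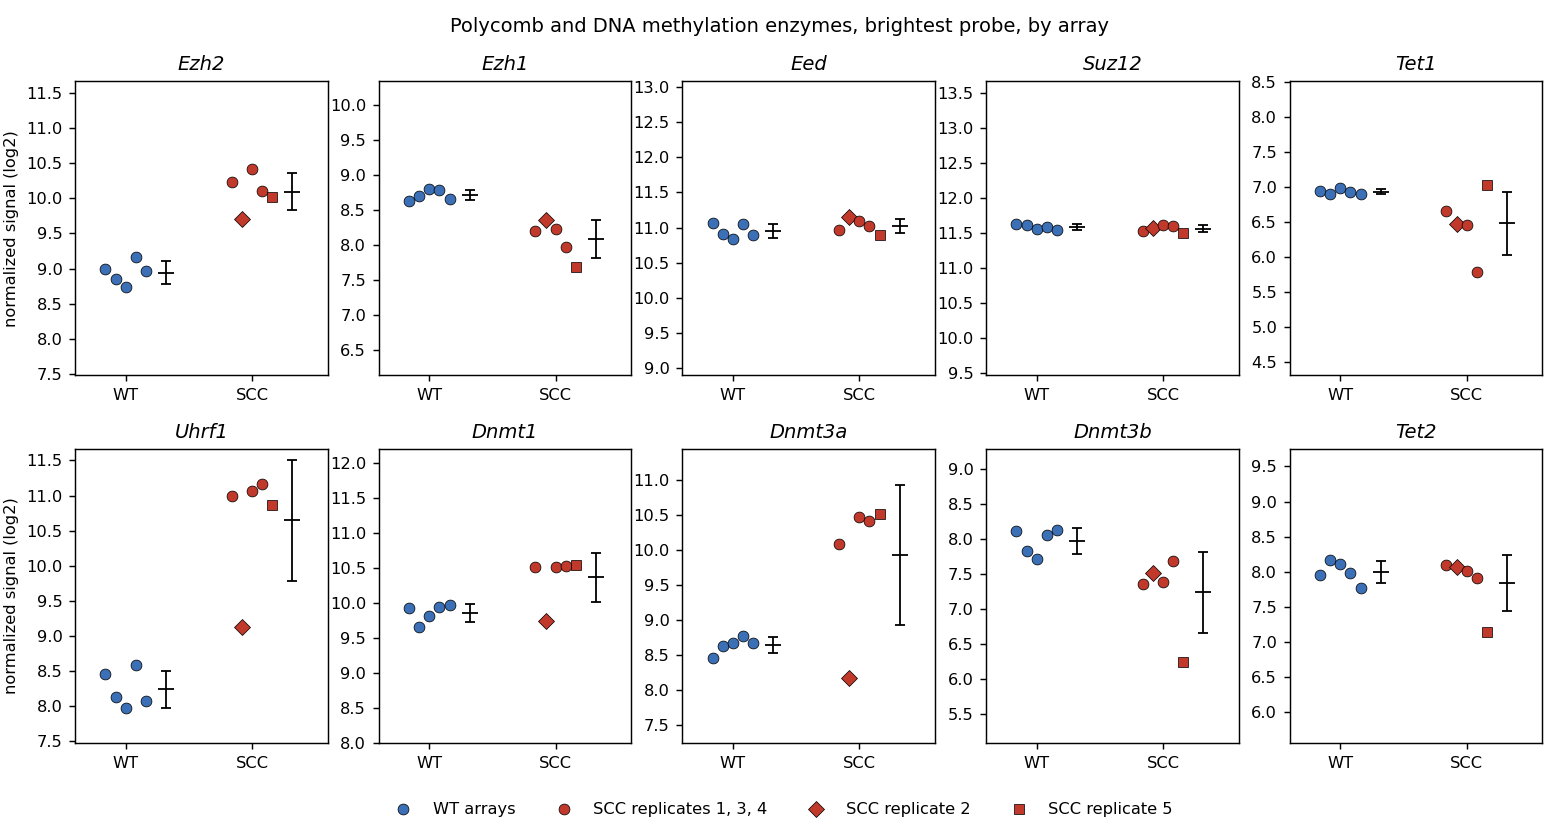
Normalized log2 signal of the brightest probe of each member on the 5 WT and 5 SCC arrays, with the mean ± SD beside each group; every panel spans the same number of log2 units. Ezh2 and Uhrf1 lie above all WT arrays on every SCC array, Dnmt1 and Dnmt3a on 4 of 5, and Eed and Suz12 overlap.

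The promoters of the members were searched for short strings of bases, and no link of a string to the differences was tested. RefSeq (GRCm38.p6) gave 15 start sites for the 10 genes, each with a window of 250 bases before and 50 after the start. These windows were rich in CpG, the dinucleotide that the methyltransferases act on, with 2 to 57 sites and a median of 30, beside a median of 7 over 32851 windows of the same length. A string that E2F proteins, regulators of genes of DNA replication, are known to bind (TTTGGCGC, TTTCCCGC, TTTCGCGC or TTTGCCGC on either strand) stood in 4 of the 15 windows, and in 2.26% of all windows. The 4 belonged to Uhrf1, Ezh2 and Dnmt1, which were higher in SCC, and to Suz12, which did not pass. Every spelling of the string holds a CG, in which the windows of the members were rich. No share over windows of like CpG content was taken, so both shares cannot be compared on equal terms. The stretch of 30 bases around each match is given below 5′ to 3′ on the strand of the gene, with the string in capitals, which in Dnmt1 is the reverse complement of the string in Uhrf1.
Uhrf1: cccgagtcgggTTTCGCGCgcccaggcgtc
Ezh2: gggttgctgcgTTTGGCGCtcggtccggtc
Dnmt1: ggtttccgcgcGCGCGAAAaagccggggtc
Suz12: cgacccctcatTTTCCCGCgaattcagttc
These stretches lie at chr17:56304117-56304146 on the + strand, chr6:47595009-47595038 on the - strand, chr9:20952824-20952853 on the - strand and chr11:79992876-79992905 on the + strand. The capitals begin 185 bases upstream of the start in Uhrf1 and 219 bases upstream in Dnmt1 and in Suz12, and in Ezh2 they begin at base 4 of the transcript. A second match in the Dnmt1 window began at base 34 of the transcript. Dnmt1 had 2 other start sites and Uhrf1 had 1 other without these letters, and the same letters were not in the 3 windows of Dnmt3a. CCAAT, a box common in promoters, was in 7 of the 15 windows and in 37.41% of all, and TTTGAA, an element of cell-cycle promoters, was in 4 of them and in 17.89% of all. A string match is a description of sequence and does not show that a protein binds there.

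In PRC2, the catalytic subunits moved in opposite directions while Eed and Suz12 did not pass. Ezh2 was at 8.99, 8.85, 8.73, 9.17 and 8.96 on WT replicates 1 to 5 and at 10.23, 9.71, 10.42, 10.11 and 10.02 on SCC replicates 1 to 5. Every tumour was above every lung, and SCC replicate 2 was the nearest to them. The difference was 1.16 (SE 0.14, n = 5 and 5), or 2.23-fold higher, with a limma adjusted p of 0.000147 and an exact permutation p of 0.00794, the smallest that 5 against 5 arrays allow. Ezh2 passed without any of the 10 arrays (1.08 to 1.26) and was the only member that passed with the slide as a block, at 1.16 with an adjusted p of 0.0391.

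Ezh1, the catalytic subunit of resting cells, was at 8.63, 8.69, 8.79, 8.78 and 8.65 in WT and at 8.19, 8.35, 8.23, 7.96 and 7.68 in SCC. No tumour reached the lowest lung. It was 1.54-fold lower, a difference of -0.63 (SE 0.13, adjusted p 0.00299), and it passed without any of the 10 arrays. With the slide as a block the difference was -0.39 with an adjusted p of 0.175.

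Eed, the subunit that binds the finished histone mark, was at 11.06, 10.91, 10.83, 11.05 and 10.89 in WT and at 10.97, 11.15, 11.10, 11.02 and 10.90 in SCC, and the groups overlapped (difference 0.08, SE 0.09, adjusted p 0.474). Suz12, the scaffold of the complex, was at 11.63, 11.61, 11.55, 11.58 and 11.54 in WT and at 11.53, 11.57, 11.61, 11.59 and 11.50 in SCC. Its difference was -0.02 (SE 0.07, adjusted p 0.807), and its sign turned with the slide as a block (0.03). The second Suz12 probe was at -0.30 (adjusted p 0.166), with SCC replicate 5 at 7.04 and the other SCC arrays between 7.72 and 7.97.

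The difference between Ezh2 and each of the other PRC2 members on the same array was compared over the 252 splits of the arrays. These were 3 of 8 pairs of members for which p-values were adjusted. Ezh2 minus Ezh1 was between -0.06 and 0.39 in WT and between 1.36 and 2.34 in SCC, a shift of 1.79 (exact permutation p 0.00794, adjusted 0.0127). Ezh2 minus Eed shifted by 1.08 and Ezh2 minus Suz12 by 1.18, with the same exact permutation p and adjusted p for both. Ezh2 mRNA thus changed unequally with that of Ezh1, of Eed and of Suz12, in all 5 tumours relative to the WT mean. No pair of members was run with the slide as a block.

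**Figure D2:**
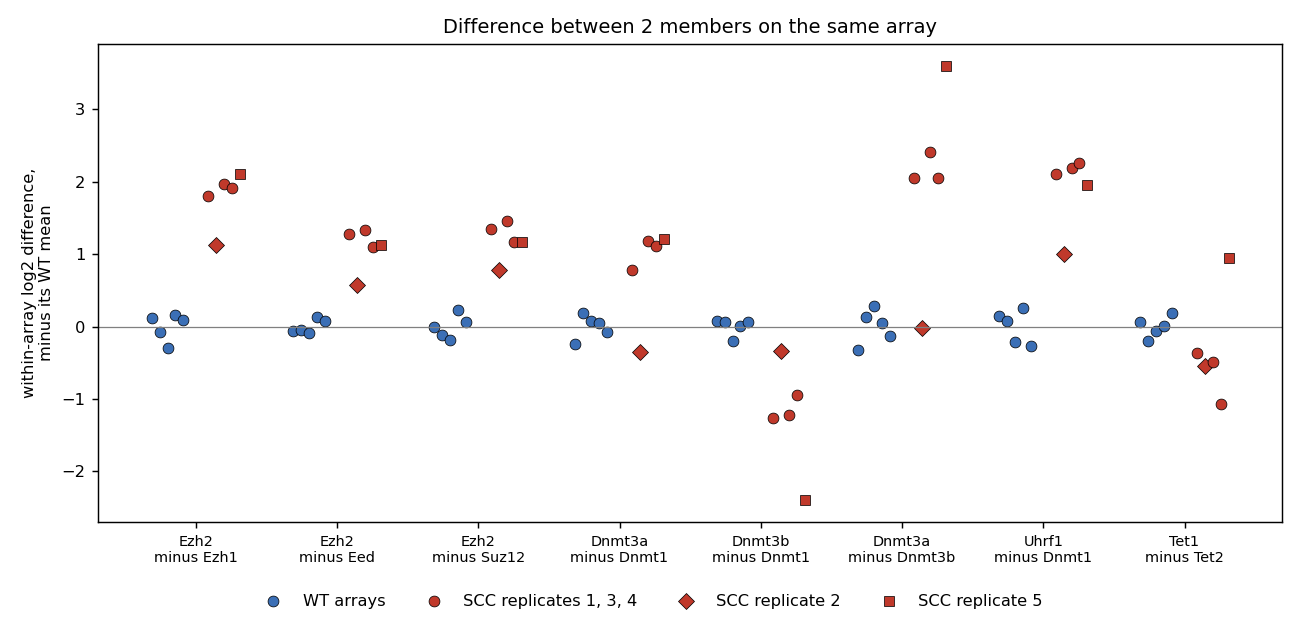
Within-array log2 difference between 2 members, with the WT mean of that difference subtracted, for 8 pairs on the 5 WT and 5 SCC arrays. SCC arrays lie apart from WT arrays for the 3 pairs of Ezh2, for Dnmt3b minus Dnmt1 and for Uhrf1 minus Dnmt1, and SCC replicate 2 lies among or next to the WT arrays for the pairs of Dnmt3a.

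By brightest probes, Uhrf1 showed the widest difference of the 10 members. It was at 8.45, 8.12, 7.97, 8.58 and 8.07 in WT and at 11.00, 9.12, 11.07, 11.16 and 10.87 in SCC. All tumours were above all lungs, but SCC replicate 2 stood 0.88 above the WT mean, which is 31.5% of the 2.79 by which the other 4 SCC arrays exceeded it. The difference was 2.41 (SE 0.37), or 5.30-fold higher, with an adjusted p of 0.000566, and without SCC replicate 2 it was 2.79 with an adjusted p of 7.42e-07. The second Uhrf1 probe gave 2.34 (adjusted p 0.000283), or 5.07-fold, with WT from 6.75 to 7.18, SCC replicate 2 at 7.91 and the remaining tumours from 9.43 to 9.77. With the slide as a block the brightest probe was at 2.33 with an adjusted p of 0.0667.

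Dnmt1, the maintenance methyltransferase, was at 9.93, 9.66, 9.81, 9.95 and 9.97 in WT and at 10.52, 9.74, 10.51, 10.53 and 10.54 in SCC. SCC replicates 1, 3, 4 and 5 were within 0.03 of each other and above every lung, and SCC replicate 2 was within the WT range. The difference was 0.50 (SE 0.16, adjusted p 0.0287, exact permutation p 0.0397), or 1.42-fold higher, and without SCC replicate 2 it was 0.66 with an adjusted p of 0.000125. It passed in 5 of the 10 fits that left out 1 array, between 0.45 and 0.66. The slide block gave 0.29 with an adjusted p of 0.575.

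The shift of Uhrf1 was larger than that of Dnmt1 on the same arrays. Uhrf1 minus Dnmt1 was between -1.90 and -1.37 in WT and between -0.62 and 0.64 in SCC, a shift of 1.90 (exact permutation p 0.00794, adjusted 0.0127).

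Dnmt3a, a de novo methyltransferase, had 3 probes, and SCC replicate 2 was the lowest tumour on each of them. The brightest, designed to accession NM_153743, was at 8.46, 8.63, 8.67, 8.77 and 8.67 in WT and at 10.08, 8.17, 10.47, 10.41 and 10.51 in SCC. SCC replicate 2 was below every lung, and the other 4 tumours were above every lung. The difference was 1.29 (SE 0.41), or 2.45-fold higher, with an adjusted p of 0.0262 and an exact permutation p of 0.0476. Without SCC replicate 2 it was 1.73 with an adjusted p of 2.16e-06. It passed in 4 of the 10 fits without 1 array, and it was 0.90 with an adjusted p of 0.455 with the slide as a block.

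Both other Dnmt3a probes were designed to accession NM_007872 and differed widely in their response. Probe A_52_P169048 was at 7.27, 7.33, 7.13, 7.26 and 7.05 in WT and at 10.39, 7.24, 10.91, 10.66 and 10.52 in SCC. SCC replicate 2 was within the WT range, 0.03 above its mean, and the other 4 tumours exceeded that mean by 3.41. Over all arrays the difference was 2.74 (SE 0.62, adjusted p 0.0051), or 6.67-fold higher. Probe A_52_P30497 was between 7.34 and 7.56 in WT and at 7.74, 7.37, 8.13, 7.89 and 7.47 in SCC, and with a difference of 0.30 (adjusted p 0.113) it did not pass. The 3 probes thus gave 1.29, 2.74 and 0.30 for 1 gene, and the cause was not tested.

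**Figure D3:**
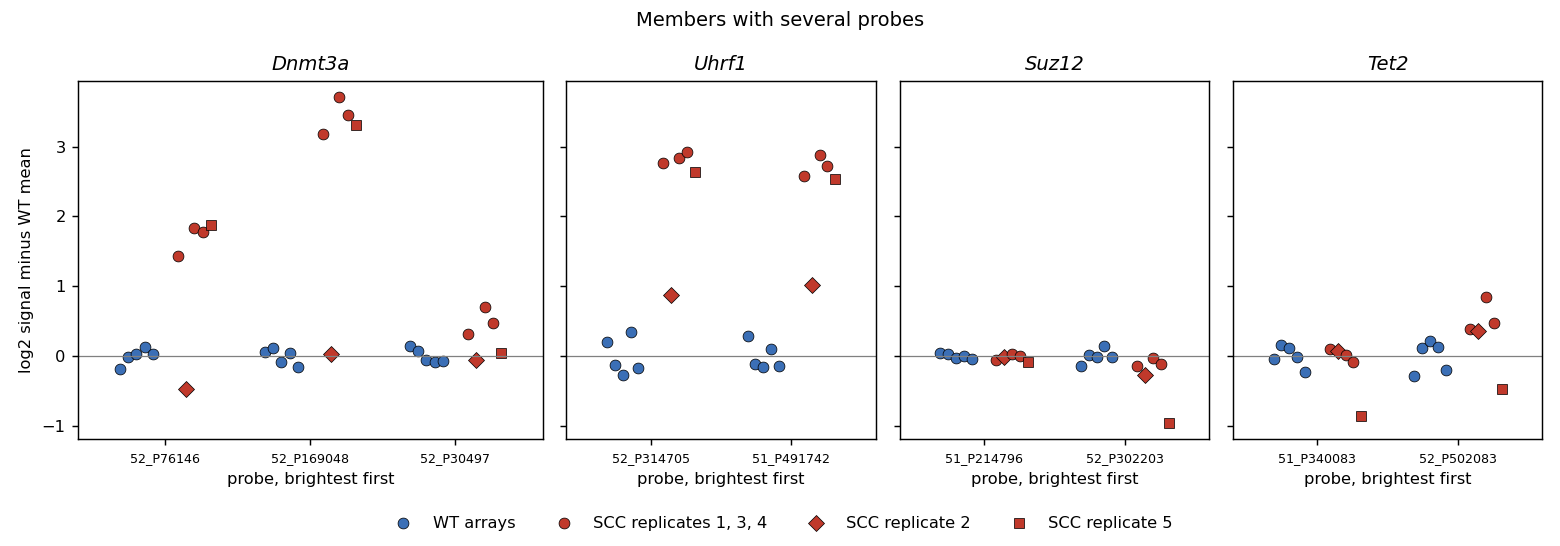
Log2 signal of every probe of the 4 members with several probes, with each probe's WT mean subtracted, on the 5 WT and 5 SCC arrays. Both Uhrf1 probes shift by similar amounts, the Dnmt3a probes shift by unequal amounts with SCC replicate 2 within or below the WT range, and SCC replicate 5 is lowest in SCC for both probes of Suz12 and of Tet2.

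Dnmt3b, the other de novo methyltransferase, moved the opposite way. It was at 8.11, 7.83, 7.71, 8.06 and 8.13 in WT and at 7.36, 7.51, 7.39, 7.69 and 6.24 in SCC. No tumour reached the lowest lung, although SCC replicate 4 was close to it, and SCC replicate 5 was far below the rest. The difference was -0.73 (SE 0.25, adjusted p 0.0363, exact permutation p 0.00794), or 1.66-fold lower, and with normexp background correction it was -0.40 (adjusted p 0.0229). Without SCC replicate 5 it was -0.48 with an adjusted p of 0.00919. It passed in 4 of the 10 fits without 1 array. The slide block gave -0.71 with an adjusted p of 0.343. Dnmt3b also missed the threshold by the methods' t-test (adjusted p 0.055). The same held for limma with a replicate block (adjusted p 0.0735) and without a filter on dim probes (0.0513).

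Among the methyltransferases, Dnmt3a minus Dnmt3b was between 0.35 and 0.95 in WT and at 2.72, 0.66, 3.08, 2.72 and 4.28 on SCC replicates 1 to 5, a shift of 2.02 (exact permutation p 0.0317, adjusted 0.0423). SCC replicate 2 was within the WT range, and without it the shift was 2.53 (unadjusted exact permutation p 0.0159). Of the 10 sets without 1 array, 4 gave an unadjusted exact permutation p below 0.05. Dnmt3b minus Dnmt1 shifted by -1.23 (exact permutation p 0.00794, adjusted 0.0127), with all 5 tumours below every lung. Dnmt3a minus Dnmt1 shifted by 0.79 and missed the threshold (exact permutation p 0.0476, adjusted 0.0544). Without SCC replicate 2 it was 1.07 (unadjusted exact permutation p 0.0159), the single set of the 10 without 1 array with a p below 0.05.

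Neither Tet gene passed. Tet1 was at 6.94, 6.90, 6.98, 6.93 and 6.90 in WT and at 6.66, 6.47, 6.45, 5.79 and 7.03 in SCC. SCC replicate 5 was above every lung and the other 4 tumours were below. The difference was -0.45 (SE 0.19, adjusted p 0.0794, exact permutation p 0.0476), and it passed in 1 of the 10 fits without 1 array. Without SCC replicate 5 it was -0.59 (adjusted p 0.0138) and without SCC replicate 4, the lowest tumour, it was -0.28 (adjusted p 0.11). Normexp background correction gave -0.24 (adjusted p 0.0858) and scaling to the 75th percentile -0.29 (adjusted p 0.514). With array quality weights Tet1 was at -0.53 and passed (limma adjusted p 0.0111). Tet2 was at 7.95, 8.16, 8.11, 7.98 and 7.77 in WT and at 8.09, 8.07, 8.01, 7.91 and 7.14 in SCC. Apart from SCC replicate 5 the tumours were within the WT range. The difference was -0.15 (SE 0.18, adjusted p 0.523), and without SCC replicate 5 it was 0.03 (adjusted p 0.834). The second probe gave 0.32 (adjusted p 0.257), and with scaling to the 75th percentile the brightest probe was at 0.02, so no direction was given to Tet2. Tet1 minus Tet2 shifted by -0.30 (exact permutation p 0.437), by -0.62 without SCC replicate 5 (unadjusted exact permutation p 0.0159) and by -0.11 without SCC replicate 4 (unadjusted exact permutation p 0.825).

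**Figure D4:**
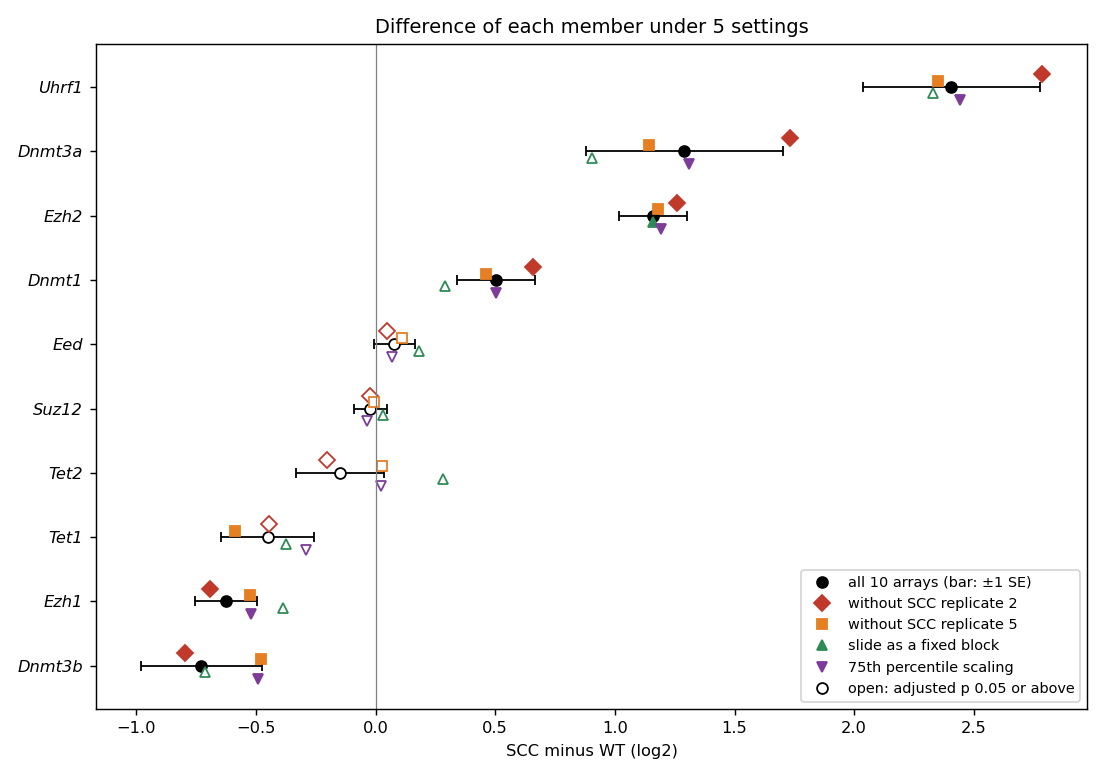
Difference of each member, SCC minus WT in log2 units, with all 10 arrays (bar, 1 SE either side), without SCC replicate 2, without SCC replicate 5, with slide as a fixed block and with 75th percentile scaling; filled symbols passed at an adjusted p below 0.05. Uhrf1, Dnmt3a, Ezh2 and Dnmt1 lie above 0 and Ezh1 and Dnmt3b below 0 at every setting drawn, Ezh2 alone is filled throughout, and Tet2 and Suz12 lie on both sides of 0.

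The arrays lay on 3 slides, of which 1 carried both groups, with WT replicate 5 beside SCC replicates 1 to 3. On that slide alone the difference was 1.16 for Ezh2, 2.33 for Uhrf1, 0.90 for Dnmt3a, 0.29 for Dnmt1, -0.39 for Ezh1 and -0.71 for Dnmt3b. These are the values of the slide block, since no other slide carried both groups. Their signs were those over all arrays, of which these arrays are a part. A single WT array stood behind those values, and on the other slides slide and group could not be told apart. The part of the slides in the differences was not tested.

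Genes of proliferation moved with Uhrf1, Ezh2, Dnmt1 and Dnmt3a. Of 13 tested markers, 12 were higher in SCC, for instance Mki67 by 2.67 and Top2a, the topoisomerase of dividing cells, by 3.20. Their mean level ranged from 8.59 to 9.26 in WT and from 11.01 to 11.29 on SCC replicates 1, 3, 4 and 5, and SCC replicate 2 was at 10.01. SCC replicate 2, the lowest tumour for these markers, was also the lowest for Ezh2, Uhrf1, Dnmt1 and Dnmt3a. Relative to the WT mean of brightest probes it reached 61.0% of the difference of the other 4 tumours for Ezh2 and 31.5% for Uhrf1. It was on the other side of that mean for Dnmt1 and Dnmt3a, but 0.03 above the WT mean on the Dnmt3a probe A_52_P169048. Other cell markers shifted as well. Neutrophil markers passed as higher for 3 of 5, with a mean level of 9.85 to 10.55 in WT, 9.71 on SCC replicate 2 and 11.85 to 12.15 on the remaining tumours, while T cell markers were lower for 5 of 6, B cell markers for 5 of 5 (of which Blk, well above background on 3 SCC arrays, entered the test through WT alone), lung epithelium for 5 of 7 and cardiac muscle for 4 of 5. The part of these cells in the differences of the members was not tested.

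The other genes of the same pathways were counted from lists. Of 7 subunits listed as accessory to PRC2, 3 were lower and 0 higher (28.4% and 25.4% of all genes), with a median of -0.06. Rbbp4 and Rbbp7 stand in this list although they belong to the core of PRC2. Phf1, which binds a histone mark of active genes, was at 12.09, 12.10, 12.19, 12.30 and 12.24 in WT and at 11.38, 11.78, 11.23, 11.22 and 11.29 in SCC, with every tumour below every lung (-0.81, SE 0.12, adjusted p 0.000444, or 0.0589 with the slide as a block). The histone chaperone Rbbp4 (-0.35) and the DNA-binding subunit Mtf2 (-0.31) were also lower. A slide block left 0 of the 7 lower. Rbbp7, the X-linked relative of Rbbp4, did not pass (0.30, adjusted p 0.282), and was at 15.01 on SCC replicate 2 and at most 13.90 on the other tumours. Phf1, Rbbp4, Mtf2 and Rbbp7 were named after their values were seen.

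PRC1, the second Polycomb complex, which compacts chromatin and adds ubiquitin to histone H2A, held more genes that were lower than higher. Of 20 subunits tested, 9 were lower and 2 higher, beside 28.4% and 25.4% of all genes, and the median was -0.13. Cbx7, a subunit that reads the PRC2 mark, was at 12.08, 11.85, 11.83, 12.01 and 12.27 in WT and at 10.19, 10.89, 9.14, 9.81 and 9.70 in SCC. Every tumour was below every lung by these values, and the difference was -2.06 (SE 0.28, adjusted p 0.000274), -2.19 with the slide as a block (adjusted p 0.0377). Pcgf6, a subunit of a variant PRC1, was higher by 1.12 (adjusted p 6.2e-05), but its second probe gave 0.47 (adjusted p 0.0702). Short of 2-fold and named after their values were seen, Bmi1, a core subunit of canonical PRC1, differed by -0.98 (adjusted p 0.000198, or 0.0595 with the slide as a block), Cbx6 by -0.84 and Phc3 by -0.65. With scaling to the 75th percentile 5 PRC1 genes were higher, and without SCC replicates 2 and 5 there were 6. A slide block left 2 lower and 1 higher.

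Enzymes that act against Polycomb gave 1 higher and 2 lower of 8 tested, beside 25.4% and 28.4% of all genes, and none by 2-fold. Without SCC replicates 2 and 5 these counts were 3 and 4, and with the slide as a block they were 0 and 1. The histone demethylase Kdm6b fell by 0.44 (adjusted p 0.00351) and the deubiquitinase Bap1 fell by 0.21 (adjusted p 0.0388), and Asxl2, a cofactor of Bap1, was higher by 0.53 (adjusted p 0.0463), with SCC replicate 2 at 8.54 against 9.26 to 9.65 on the other tumours. These 3 were named after their values were seen.

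**Figure D5:**
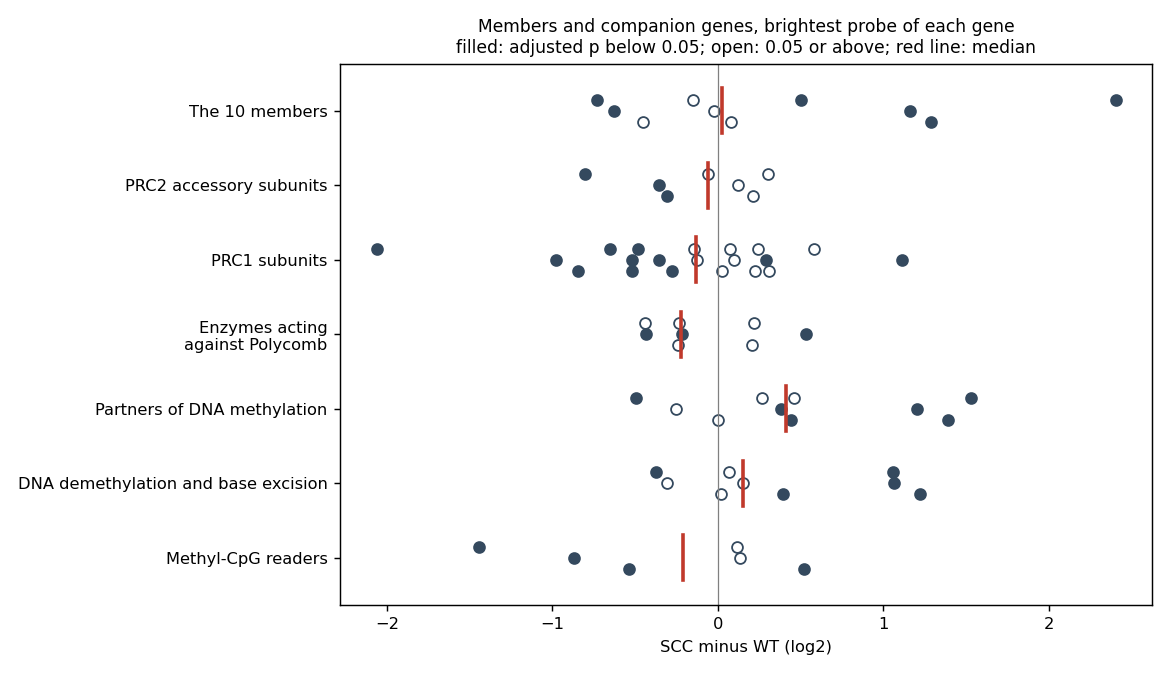
Difference of each gene, SCC minus WT in log2 units, for the 10 members and 6 companion lists, 1 point per gene with its brightest probe; filled points passed at an adjusted p below 0.05 and red lines are medians. Among PRC1 subunits 9 points passed below 0 and 2 above, and among partners of DNA methylation 5 passed above 0 and 1 below.

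Of 10 partners of DNA methylation, 5 were higher, 1 was lower and 4 did not pass, beside 25.4% higher and 28.4% lower of all genes, and the median was 0.41. A slide block left 0 higher. Hells, a chromatin remodeller needed for DNA methylation, was at 7.84, 7.40, 7.43, 7.65 and 7.56 in WT and at 9.40, 8.29, 9.09, 9.47 and 9.29 in SCC, a difference of 1.53 (SE 0.22, adjusted p 0.000346). Cdca7, its binding partner, was at 8.61, 8.38, 8.21, 8.63 and 8.46 in WT and at 9.98, 8.81, 10.25, 10.26 and 9.97 in SCC, a difference of 1.39 (SE 0.26, adjusted p 0.00176). Both were higher on every tumour than on every lung, and SCC replicate 2 was again the lowest tumour. Ahcy, which clears the by-product of methyl transfer, rose by 1.20 (adjusted p 0.00223). With the slide as a block these genes were at 1.36, 1.22 and 1.25 and none of the 3 passed (adjusted p 0.0595, 0.144 and 0.0781).

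Of 9 genes of DNA demethylation and base excision, 4 were higher and 1 lower, beside 25.4% and 28.4% of all genes, with a median of 0.15. Tdg, the glycosylase that removes oxidised methylcytosine, was at 10.28, 10.46, 10.43, 10.35 and 10.53 in WT and at 11.73, 11.07, 11.70, 11.79 and 11.87 in SCC, a difference of 1.22 (SE 0.15, adjusted p 0.000153), and its second probe gave 1.06. The slide block gave 0.96 with an adjusted p of 0.0507. Apex1, the endonuclease of base excision repair, was higher by 1.06 (adjusted p 0.00012). Idh1, which makes the cofactor of the Tet enzymes, was higher by 1.06 as well (adjusted p 0.000204), and SCC replicate 2 was its highest tumour at 10.93 against 10.14 to 10.44. Tet3, the third Tet gene, was at 0.02 (adjusted p 0.905), and was named after its value was seen.

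Among 6 readers of methylated CpG sites, 3 were lower and 1 higher, beside 28.4% and 25.4% of all genes, with a median of -0.21. Zbtb4, a zinc finger repressor, was at 14.41, 14.39, 14.45, 14.38 and 14.56 in WT and at 13.05, 13.53, 12.69, 12.70 and 12.99 in SCC, a difference of -1.45 (SE 0.16, adjusted p 6.88e-05), and its second probe gave -1.56.

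Genes that these pathways are known to hold silent were mostly dim. Of 8 germline genes with a probe, 2 had signal enough for the test and neither passed. Of 10 developmental genes bound by PRC2 in other cells, 6 were tested, 3 were lower and 0 higher (28.4% and 25.4% of all genes), and Pax3 and T were not well above background on any array. Wt1, a mesothelial transcription factor, was between 7.63 and 8.34 in WT and was well above background on 1 of 5 SCC arrays, with values of 4.03, 2.15, 4.79, 4.24 and 2.20. It entered the test through the WT arrays alone, so it had to differ, and no size of difference is given for it although it is 1 of the 3 lower genes. Cdkn1c, an imprinted inhibitor of the cell cycle, fell by 1.95 (adjusted p 0.000921, or 0.0762 with the slide as a block), and Neurog1, a neural transcription factor, fell by 1.29 (adjusted p 0.00396). Cdkn2a, a cell-cycle inhibitor repressed by Polycomb, was between 4.29 and 5.45 in WT and at 6.72, 2.51, 7.45, 6.47 and 5.23 in SCC (0.71, adjusted p 0.488), and was named after its values were seen. Without SCC replicates 2 and 5, 2 developmental genes were higher, Cdkn2a and Pax6. Pax6 was well above background on 3 WT and 4 SCC arrays, so it entered the test through SCC alone. It was named after its values were seen.

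The genes whose pattern lay nearest to that of each member that passed were sought among 15498 genes, by the root mean square of the difference between both probes over the 10 arrays, each relative to its own WT mean. For Uhrf1 they were Exo1, an exonuclease of DNA repair, at 0.10 log2 units, Slc23a3 at 0.14 and Dbil5 at 0.16. For Ezh2 they were Tcf19 at 0.11, Prr13 at 0.12 and Slc35f6 at 0.13. The nearest to Dnmt1 were Nup155, a protein of the nuclear pore, at 0.08, Ap2m1 at 0.08 and Rps6ka4 at 0.09, and to Dnmt3a, Plcd1, a phospholipase, at 0.12, Plekhn1 at 0.18 and Igsf6 at 0.18. Ezh1 lay nearest to Septin10 at 0.09, Rad50, a subunit of a complex that repairs DNA breaks, at 0.10 and Mettl22 at 0.10, and Dnmt3b to Ppef2 at 0.12, Gm10033 at 0.13 and Ccdc14 at 0.15. These distances describe likeness over the same 10 arrays and carry no test.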

How the data were processed

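RNA of 5 WT lungs and 5 SCC tumours was measured on 10 arrays, and groups and replicate numbers came from the sample titles. Scans were read by the authors with Agilent Feature Extraction (version 12 per the submitters' processing notes). Their deposited scanner tables give, spot by spot, a linear processed intensity from which background had been subtracted, median intensities and flags. A deposited matrix of log2 values by the authors tracked log2 processed intensity after quantile normalization (r at least 0.999947 on each array) and served to choose the brightest probe and as an alternative. The study's methods name quantile normalization, log2 transformation and an analysis of variance.

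Control spots and outlier spots were left out, spots of a probe were averaged, and intensities were quantile-normalized and taken to log2. Probes were named through their accession in RefSeq's gene table (GRCm38.p6), which named 28215 of 41174 probes. A probe entered the test if well above background on at least 4 of 5 arrays of 1 group, which kept 30374. SCC and WT were compared with limma 3.58.1 (R 4.3.3, lmFit and eBayes, two-sided, Benjamini-Hochberg), and a gene passed at an adjusted p below 0.05 and was called if also 2-fold. Single values and pairs were tested by exact two-sided permutation (scipy 1.17.1). On simulated data 162 of 200 probes changed by 2 log2 units were called, with 7 false calls. Only 200 probes were changed there, whereas 6954 of 30374 tested probes were called between SCC and WT. The share of false calls among those 6954 was not tested. The number of arrays limits the precision.

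The members and lists were chosen with earlier results of these data known. The text names all members and their probes, the called genes of each companion list (at most 3 in each direction), the 3 genes nearest in pattern to each member that passed and preset markers, and says where a gene was named after its values were seen. Alternatives were 75th percentile scaling, normexp on the median signals, the deposited matrix, other filters, slide as a fixed or random block, a replicate block, the methods' t-test, array quality weights, other probes and leaving out arrays.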

Additional observations from a re-analysis of the deposited data

Results flagged for a closer look

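In 8 of 30 groups of 5 arrays tested, 1 array stood apart from the rest by a gap that, divided by the range of the group, was above Dixon's critical value of 0.71. Chance gives about 1 in 20 such groups where groups are independent, but these share the same arrays and some share a gene. All 8 were low SCC arrays, 5 of them SCC replicate 2 and 3 SCC replicate 5.

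SCC replicate 2 was low for Dnmt1 (9.74 against 10.51 to 10.54, gap 0.965), for the Dnmt3a probes A_52_P76146 (8.17 against 10.08 to 10.51, gap 0.817) and A_52_P169048 (7.24 against 10.39 to 10.91, gap 0.857) and for the Uhrf1 probes A_52_P314705 (9.12 against 10.87 to 11.16, gap 0.855) and A_51_P491742 (7.91 against 9.43 to 9.77, gap 0.816). The mean levels of the squamous, proliferation and neutrophil markers were also lowest on this tumour among the SCC arrays, and the mean level of the endothelial markers was the highest. Their part in the gaps was not tested.

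SCC replicate 5 was low for Dnmt3b (6.24 against 7.36 to 7.69, gap 0.775), for the Suz12 probe A_52_P302203 (7.04 against 7.72 to 7.97, gap 0.731) and for the brightest Tet2 probe (7.14 against 7.91 to 8.09, gap 0.816). This array had the highest share of spots well above background, 90.2%, and its part in these values was not tested.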

How the results depend on the processing

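The 6 members that passed kept their direction under every alternative run. With the slide as a fixed block 1 member was higher (Ezh2) and 0 lower. Lower members were 1 without a filter on dim probes (Dnmt3b adjusted p 0.0513) and 1 by the methods' t-test (0.055). Leaving out 1 array gave 2 to 4 higher members (2 without WT replicate 2 or 3 or without SCC replicate 1, 3 or 4) and 1 to 3 lower ones. Deviations of same-numbered samples correlated between -0.10 and 0.01. That cannot show whether they were paired, since a paired lung and tumour need not deviate alike. A replicate block gave 4 higher and 1 lower member, and Dnmt3b no longer passed (limma adjusted p 0.0735).

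Suz12 turned to 0.0307 with the slide as a block, which is the same value as on slide 2 alone. Tet2 turned to 0.0217 with 75th percentile scaling and to 0.28 with the slide as a block, again the value of slide 2 alone. It was 0.0096 without SCC replicates 2 and 5 and 0.32 with its second probe. It lay between -0.21 and 0.0269 when 1 array was left out. On leaving out 1 array, Dnmt3a minus Dnmt1 was between 0.68 and 1.07, Dnmt3a minus Dnmt3b between 1.62 and 2.53 and Tet1 minus Tet2 between -0.62 and -0.11.

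With the slide as a block, higher genes numbered 1 in PRC1, 0 among enzymes acting against Polycomb, 0 among partners of DNA methylation, 2 in demethylation and 0 among readers, and lower genes 0 in PRC2 accessory subunits, 2 in PRC1, 1 among enzymes acting against Polycomb, 0 among partners, 0 in demethylation, 1 among readers and 2 developmental (3 without the block). Without SCC replicates 2 and 5, higher genes were 1 in PRC2 accessory subunits, 6 in PRC1, 3 among enzymes acting against Polycomb, 2 among readers, 1 germline and 2 developmental. Of the 2 developmental genes, Pax6 had entered the test through SCC alone. Lower genes were then 4 among enzymes acting against Polycomb and 2 among partners. With 75th percentile scaling, which moved the median of all tested probes by 0.12, higher genes were 5 in PRC1 and 1 germline, and lower genes 0 in demethylation.

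Beside 6954 probes called (3014 higher, 43.3%), 4036 were called with normexp, 2988 with the slide as a block and 6385 to 8135 without 1 array, and 14878 passed on adjusted p alone. The share higher was 53.2% with 75th percentile scaling. Causes were not tested.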

Other observations

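Among the germline genes, Tex101 was at 9.95 on SCC replicate 5, between 4.83 and 5.51 on the other tumours and between 4.87 and 5.33 on the lungs. Asz1, which entered no test, was at 8.65 on SCC replicate 2 and at 5.40 on SCC replicate 5. Both were picked after their values were seen.

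Kdm6a, an X-linked histone demethylase known to escape X inactivation, was at 8.80, 8.90 and 8.89 on WT replicates 2 and 3 and SCC replicate 2, the arrays with Xist at 4.33 or lower, and at 8.71 on SCC replicate 5. On the other arrays it was between 9.13 and 9.66. The difference between the groups was -0.24 (limma adjusted p 0.355). It too was picked after its values were seen.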
